A study of Mus musculus with 7 samples.

Results

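The genes described here are 35 protein-coding interferon response and antigen presentation genes of the mouse prefrontal cortex (PFC). They were taken by name from a fixed list of 37 symbols among the 55416 genes of the count table, 21885 of them protein-coding. The 2 symbols outside the rule, Mx1 and Mx2, are annotated in the table as polymorphic pseudogenes. All 35 genes passed the filter on low counts and were tested together with 17254 genes in all.

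RNA sequencing of poly(A)-selected RNA was performed on the PFC of female C57BL/6 wild-type mice injected on both sides with an adeno-associated virus (AAV). Control mice (Ctr, 3 libraries) received the empty virus with EGFP, Ref mice (2 libraries) the virus carrying the human long noncoding RNA PAXIP1-AS1 with its reference C allele, and Alt mice (2 libraries) the same RNA with the alternative G allele. Every animal therefore carried a viral vector, and each comparison was between vectors. The human synapsin promoter of the vector restricts its expression mainly to neurons, whereas the tissue was taken as bulk cortex, in which fewer cells of a type and less RNA per cell cannot be told apart. The age of the mice and whether 1 library stood for 1 animal are not given in the sources used here, so p-values measure only the spread between these libraries.

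Type I and type II interferons are secreted cytokines that signal infection. Binding to their receptors activates JAK kinases and STAT proteins. STAT2 and IRF9 are subunits of the complex ISGF3, which binds the interferon-stimulated response element (ISRE) of target promoters, and the gamma-activated site (GAS) is an element of promoters that answer interferon gamma. The induced genes encode sensors of viral nucleic acids, effectors that block viral entry or replication, GTPases that attack pathogen-containing vacuoles, and the class I antigen presentation machinery, which displays peptides on the cell surface for CD8 T cells. In the brain, microglia and vascular cells respond strongly to interferon, and class I molecules are also found on neurons.

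Promoter windows of 26 of the 35 genes were found in the RefSeq table (build GRCm38.p6), each running from 250 bases before to 50 bases after the annotated transcription start. Dhx58, Ifi27, Iigp1, Oas2, Parp14, Rtp4, Tap2, Usp18 and Zbp1 had no entry. The ISRE core GAAANNGAAA, searched on both strands, was present in 16 of these 26 genes (61.5%), compared with 3.99% of all 27025 genes in the table. The GAS core TTCNNNGAA, which reads the same on both strands, was present in 7 of the 26 (26.9%), compared with 9.55% of all genes. A base could belong to matches of both motifs. Isg15 had the most ISRE matches (3) and 7 genes had 2. Isg15 is shown with Oas1a and Ifitm3, the genes with the smallest p between Alt and Ctr among those 7, because they display how the core repeats. Capitals mark the ISRE matches alone, so that the 1 GAS match of Oas1a is in lower case and that of Ifitm3, which shares its last bases with an ISRE match, is so in part. Each sequence runs 5′ to 3′ on the gene's minus strand.
Isg15, chr4:156200819-156200968: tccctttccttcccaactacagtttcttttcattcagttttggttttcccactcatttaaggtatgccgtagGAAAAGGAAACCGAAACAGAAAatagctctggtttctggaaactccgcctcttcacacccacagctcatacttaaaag
Oas1a, chr5:120907526-120907675: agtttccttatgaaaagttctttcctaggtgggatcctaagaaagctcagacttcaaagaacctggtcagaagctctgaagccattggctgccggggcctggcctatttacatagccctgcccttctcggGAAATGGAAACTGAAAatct
Ifitm3, chr7:141010714-141010743: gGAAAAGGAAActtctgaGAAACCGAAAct
In Isg15, which encodes a ubiquitin-like modifier, 3 overlapping matches covered 22 bases, from 78 to 57 bases before the start. In Oas1a, an oligoadenylate synthetase, 2 overlapping matches lay from 20 to 5 bases before it. In Ifitm3, which blocks viral entry at membranes, 2 separate matches lay just after the start and the bases before it held none. A match is a description of the sequence and not evidence of a bound site.

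**Figure D1:**
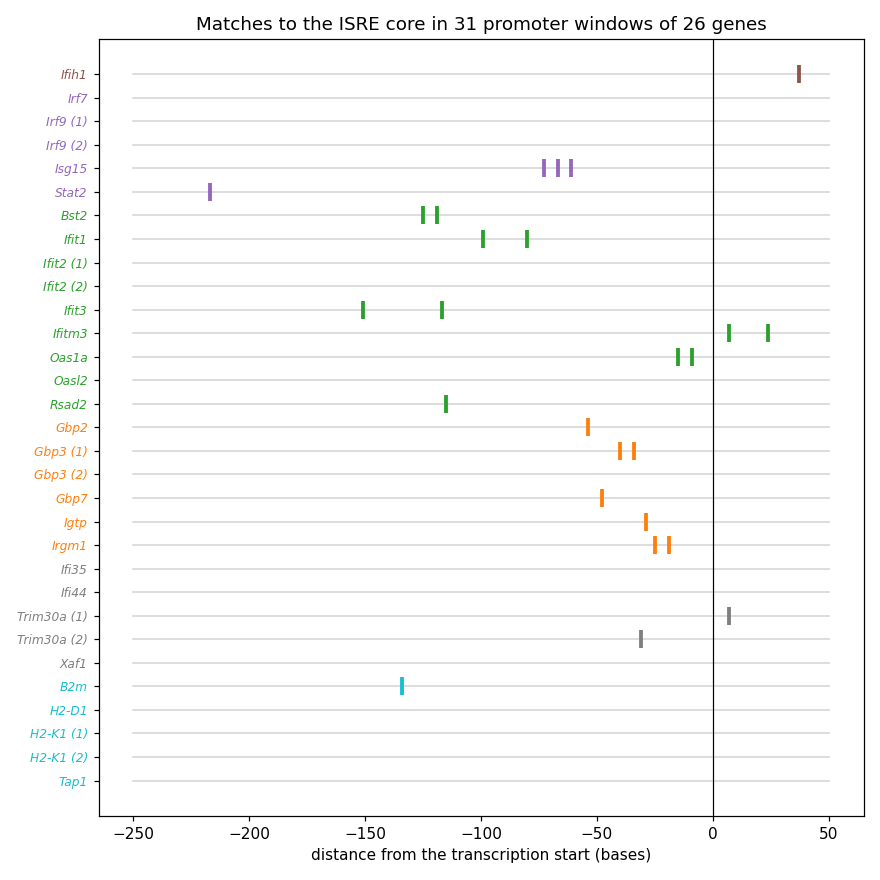
Positions of ISRE core matches (ticks) along the 31 promoter windows of 26 genes, as the distance in bases from the annotated transcription start (vertical line), coloured by gene role and with genes of several starts numbered. All 5 GTPase genes and 6 of 8 antiviral effector genes with a window held a match, against 1 of 4 antigen presentation genes.

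By role, a match was found in 6 of 8 antiviral effectors, 5 of 5 GTPases, 2 of 4 signalling genes, 1 of 4 antigen presentation genes, 1 of 4 other induced genes and 1 of 1 sensor. In the plot of ISRE positions, the GTPase matches all lay close before the start. Of the 5 genes that passed the test between Alt and Ctr described next, B2m and Ifitm3 held a match, whereas Irf9, Ifit2 and H2-D1 held none in their windows.

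The library totals ranged from 16655697 counts in Alt replicate 1 to 20750857 in Ctr replicate 3. Levels are given as CPM, counts scaled to a common library size after TMM normalization, or as FPKM, the authors' value per length and depth, where genes are compared. Neuron markers were abundant and lymphocyte markers nearly absent: the 10 cortical neuron markers summed to 8759 to 10160 CPM in the 7 libraries, whereas the 12 lymphocyte markers summed to 2.73 to 7.89 CPM, with 3 to 10 of them at 0 in each library. The Alt pair differed most between its own libraries: the chi-square of their counts divided by its degrees of freedom was 62.38, compared with 19.68 to 26.65 for pairs in the other groups.

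The 35 genes were mostly low in this tissue, and the antigen presentation genes B2m, H2-D1 and H2-K1 stood above the rest. B2m, the invariant light chain of class I molecules, had the highest mean at 156 FPKM, followed by the class I heavy chains H2-D1 at 21.3 FPKM and H2-K1 at 18.1 FPKM. Ifi27, a small interferon-induced membrane protein, averaged 10.6 FPKM and Ifitm3 averaged 9.60 FPKM. The peptide transporter subunits Tap2 and Tap1 averaged 1.15 and 0.846 FPKM. The most abundant sensor was Ifih1 (MDA5, a sensor of long double-stranded RNA) at 1.69 FPKM, the most abundant signalling gene was Stat2 at 3.08 FPKM, and the most abundant GTPase was Gbp3 at 3.16 FPKM. Zbp1, a sensor of Z-form nucleic acids, was the lowest at 0.184 FPKM.

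**Figure D2:**
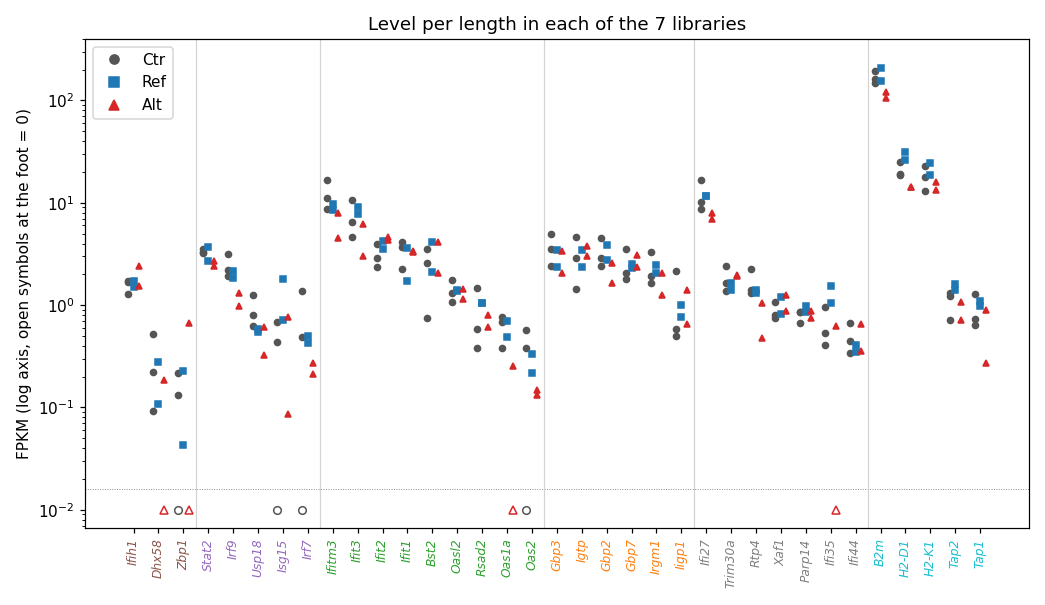
FPKM of each of the 35 genes in the 7 libraries on a log axis (Ctr circles, Ref squares, Alt triangles, open symbols at the foot for 0), with genes grouped by role. B2m lies above all others at 106 to 206 FPKM, and 7 genes are at 0 in at least 1 library.

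The interferons themselves were almost undetected. Of 21 interferon ligand genes, 20 had 0 counts in every library, and Ifnk, a skin type I interferon, had 1 count in Ctr replicate 3. A count of 0 allows up to 3 counts per library, and poly(A) sequencing at this depth could not show a lower level. Of 11 receptor and kinase genes, 10 were tested.

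The question addressed by the design was whether PAXIP1-AS1 overexpression, and its G allele in particular, changes PFC transcription. Genes were tested with edgeR's quasi-likelihood test across all 17254 genes and called at an unadjusted p under 0.05, with the Benjamini-Hochberg adjusted value (FDR) beside it. No member reached an FDR under 0.05 in any comparison. The smallest FDR among the 35 was 0.137 between Alt and Ctr, 0.229 between Alt and Ref, 1.0 between Ref and Ctr and 0.189 for the trend across Ctr, Ref and Alt. Over all genes the FDR threshold was passed by 0.0% between Alt and Ctr, 0.0058% (1 gene) between Alt and Ref, 0.0% between Ref and Ctr and 0.0% for the trend. With DESeq2, H2-D1 alone among the 35 had an FDR under 0.05, at 0.0189 between Alt and Ref, a threshold that 429 of all genes (2.49%) passed with DESeq2 in this comparison.

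Between Alt and Ctr, Irf9 (ENSMUSG00000002325.16), Ifitm3 (ENSMUSG00000025492.7), B2m (ENSMUSG00000060802.9) and H2-D1 (ENSMUSG00000073411.13) were lower in Alt and Ifit2 (ENSMUSG00000045932.13) was higher. These 5 calls among 35 genes (14.3%) stand against 19.8% of all genes tested, so the share was no higher than the background with all 7 libraries and this filter. In the higher direction 1 gene (2.86%) was called, against 9.45% of all genes, and in the lower direction 4 (11.4%) were called, against 10.3%. The libraries of both groups did not overlap for 1 gene in the higher direction (background 16.8%) and 7 in the lower direction (background 18.1%). The median log2 fold change of the 35 was -0.26, compared with -0.03 over all genes, with 14 genes positive and 21 negative. That median was 0.01 without Ctr replicate 2, -0.01 without Alt replicate 2 and -0.07 after a correction for gene length.

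Irf9 encodes the DNA-binding subunit of ISGF3. Its level was 11.4, 16.8 and 9.89 CPM in the 3 Ctr libraries, 9.48 and 11.9 in Ref, and 5.72 and 7.42 in Alt. Both Alt libraries were below every Ctr and Ref library. The group means were 12.7 ± 3.65 (SD, n = 3), 10.7 ± 1.71 (n = 2) and 6.57 ± 1.20 CPM (n = 2). Alt was 0.52 times Ctr, a log2 fold change of -0.95 (SE 0.30, FDR 0.137). Against Ref the log2 fold change was -0.70 (SE 0.32, FDR 0.323), just short of the unadjusted threshold, and the trend was -0.46 per step (SE 0.15, FDR 0.189). The call against Ctr was kept under each of the 6 other processing settings and without each library in turn, whereas the trend call was lost without Ctr replicate 2. The start of Irf9 lies inside the end of Rnf31 on the same strand, with 123 bases shared. Rnf31 itself had a log2 fold change of -0.18 (FDR 0.694) in the same comparison.

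Stat2, the partner of IRF9 in ISGF3, had 18.6, 20.4 and 18.8 CPM in Ctr, 20.9 and 16.4 in Ref, and 17.4 and 14.8 in Alt. The Alt libraries were both below the Ctr libraries but overlapped Ref, and the log2 fold change of -0.26 (SE 0.21, FDR 0.540) did not pass. The other signalling genes did not pass the test in any comparison with all 7 libraries. Usp18, a protease that removes ISG15 and restrains the receptor, had 0.976 to 3.34 CPM across libraries. Isg15 itself had 0 to 25 counts and Irf7, a factor that amplifies type I interferon, had 0 to 100 counts. For Irf7 the highest and the lowest value were both in Ctr.

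Ifitm3 had 10.8, 7.43 and 5.62 CPM in Ctr, 5.56 and 6.77 in Ref, and 3.32 and 5.63 in Alt. The groups overlapped, because Alt replicate 2 was just above the lowest Ctr library. The log2 fold change between Alt and Ctr was -0.83 (SE 0.37, FDR 0.246), and the trend was -0.41 per step (SE 0.18, FDR 0.276). Ifitm3 is only 678 bases long, and the length correction moved the log2 fold change to -0.52 (FDR 0.478), which ended the call. The call against Ctr was kept under 4 of the 13 alternatives: it was also lost with RLE size factors, with DESeq2, among protein-coding genes alone and without Ctr replicate 1 (log2 fold change -0.54), Ctr replicate 2, Ref replicate 1, Ref replicate 2 or Alt replicate 1 (-0.50), and it was -1.26 without Alt replicate 2. The trend call was lost with the length correction and without Ctr replicate 1 (-0.27 per step), Ctr replicate 2 or Alt replicate 1.

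Ifit2, which binds viral RNA and blocks translation, was the only gene of the 35 called in the higher direction between Alt and Ctr. It measured 8.84, 15.2 and 10.96 CPM in Ctr, 15.7 and 14.2 in Ref, and 19.9 and 17.7 in Alt. Both Alt libraries lay above the other 5. Group means were 11.7 ± 3.22 in Ctr, 14.97 ± 1.06 in Ref and 18.8 ± 1.57 CPM in Alt. The fold was 1.61, a log2 fold change of 0.69 (SE 0.25, FDR 0.171), and the trend was 0.35 per step (SE 0.12, FDR 0.209). The call against Ctr was lost with the replicate block and without Ctr replicate 1, Ctr replicate 3 or Alt replicate 1, and the trend call with the block and without Ctr replicate 1. Among its family members, which were not called between Alt and Ctr, Ifit1 had a log2 fold change of 0.13 (FDR 0.882) and Ifit3 of -0.53 (FDR 0.458). Ifit3 was called lower in Alt than in Ref only without the low-count filter or with the replicate block among the fits of all libraries. Ifit3 has a near-identical copy, Ifit3b, so reads of this pair can be split or lost in counting.

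**Figure D3:**
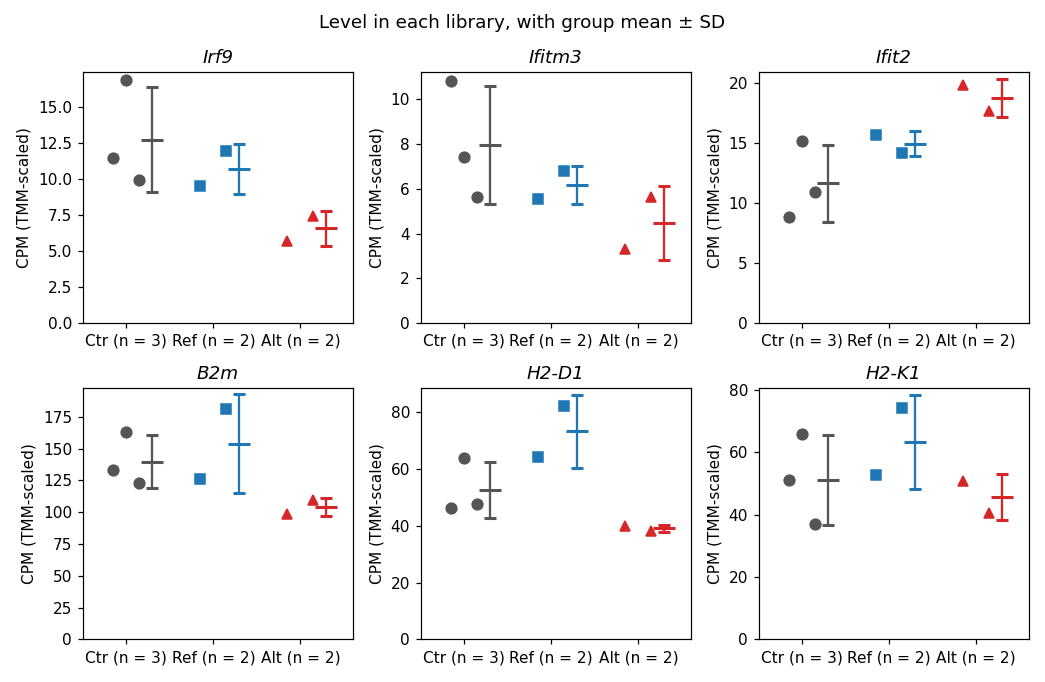
CPM in each library (points) with the group mean ± SD (bar beside them) for the 5 genes called between Alt and Ctr and for H2-K1. The Alt libraries lie below every Ctr and Ref library for Irf9, B2m and H2-D1 and above them for Ifit2, whereas Ifitm3 and H2-K1 overlap Ctr.

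The other antiviral effectors gave no call in the 4 comparisons with all 7 libraries. Bst2, a tether that holds budding virions, ranged from 0.645 CPM in Ctr replicate 1 to 3.85 in Alt replicate 2. Rsad2 (viperin), which makes a chain-terminating nucleotide, ranged from 1.59 to 6.25 CPM, with both extremes in Ctr. Oasl2, a relative of the oligoadenylate synthetases, ranged from 6.603 to 11.1 CPM, again with both extremes in Ctr. Oas1a had 25, 29 and 15 counts in Ctr, 18 and 26 in Ref, and 0 and 9 in Alt, which did not pass (log2 fold change -2.10, SE 1.25, FDR 0.369). Oas2 had 0, 51 and 35 counts in Ctr, 19 and 29 in Ref, and 11 in each Alt library. Oas1a shares sequence with other Oas1 copies, which makes its count uncertain.

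All 5 antigen presentation genes had negative log2 fold changes for Alt against both Ctr and Ref, and positive ones for Ref against Ctr. B2m measured 133, 163 and 123 CPM in Ctr, 126 and 181 in Ref, and 98.9 and 109 in Alt. Its 2 Alt libraries were below the other 5. The log2 fold change was -0.42 against Ctr (SE 0.19, FDR 0.242) and -0.56 against Ref (SE 0.21, FDR 0.249). B2m is 860 bases long, and with the length correction these values became -0.07 (FDR 0.904) and -0.11 (FDR 0.882), which ended both calls. The call against Ctr was also lost with RLE size factors, among protein-coding genes alone and without Ctr replicate 1, Ctr replicate 2 or Alt replicate 1, and that against Ref without Ref replicate 2, where the log2 fold change was -0.27, or without Alt replicate 1. Over all 1132 tested genes under 1000 bases, the median log2 fold change between Alt and Ctr was -0.26, compared with 0.11 over the 8738 genes of 4000 bases or more.

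H2-D1 was the member with the smallest p in any comparison. It measured 46.3, 63.9 and 47.7 CPM in Ctr, 64.3 and 82.4 in Ref, and 40.0 and 38.2 in Alt. The 3 groups did not overlap, with Ref highest and Alt lowest. Means were 52.6 ± 9.77 in Ctr, 73.3 ± 12.8 in Ref and 39.1 ± 1.27 CPM in Alt. Alt was 0.53 times Ref, a log2 fold change of -0.91 (SE 0.21, FDR 0.229). This call was kept under every alternative setting and without each library in turn, with a smaller value of -0.60 (FDR 0.301) after the length correction. Against Ctr, Alt was lower by a log2 fold change of -0.43 (SE 0.19, FDR 0.242) and Ref was higher by 0.48 (SE 0.19, FDR 1.0). With the length correction the log2 fold change between Alt and Ctr was -0.20 (FDR 0.678) and that between Ref and Ctr was 0.40 (FDR 0.932), which ended both calls. The call between Alt and Ctr was kept under 4 of the 13 alternatives: RLE size factors, DESeq2, protein-coding genes alone, the replicate block and leaving out Ctr replicate 2 (log2 fold change -0.26), Ref replicate 2 or either Alt library also ended it. The call between Ref and Ctr was also lost with the block and without Ctr replicate 1, Ctr replicate 3 or Ref replicate 2 (0.28).

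The other class I heavy chain of this list, H2-K1, had 51.0, 65.8 and 36.9 CPM in Ctr, 52.6 and 74.0 in Ref, and 50.9 and 40.4 in Alt. Both Alt libraries lay below Ref but inside the Ctr range, and the log2 fold changes were -0.17 against Ctr (FDR 0.758) and -0.47 against Ref (FDR 0.411). Without the low-count filter H2-K1 was called lower in Alt than in Ref. The difference between H2-D1 and H2-K1 was not tested. Tap1 had 1.56 to 6.94 CPM and Tap2 had 2.63 to 5.80 CPM, and both were lower in Alt than in Ref without passing (log2 fold changes -0.71 and -0.64). Class I genes are close relatives, and their counts depend on how the authors' counting treated reads that fit several of them.

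Between Alt and Ref, B2m and H2-D1 were the 2 genes called (5.71% of 35), against 15.5% of all genes. None was called higher, against 6.71% of all genes, and 2 were called lower, against 8.83%. Libraries did not overlap for 3 genes (8.57%) in the higher direction (background 21.6%) and for 14 (40.0%) in the lower direction (background 26.1%). The median log2 fold change was -0.45, compared with -0.04 over all genes, with 12 genes positive and 23 negative. It was -0.18 after the length correction, -0.21 without Alt replicate 2 and -0.27 without Ref replicate 2.

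**Figure D4:**
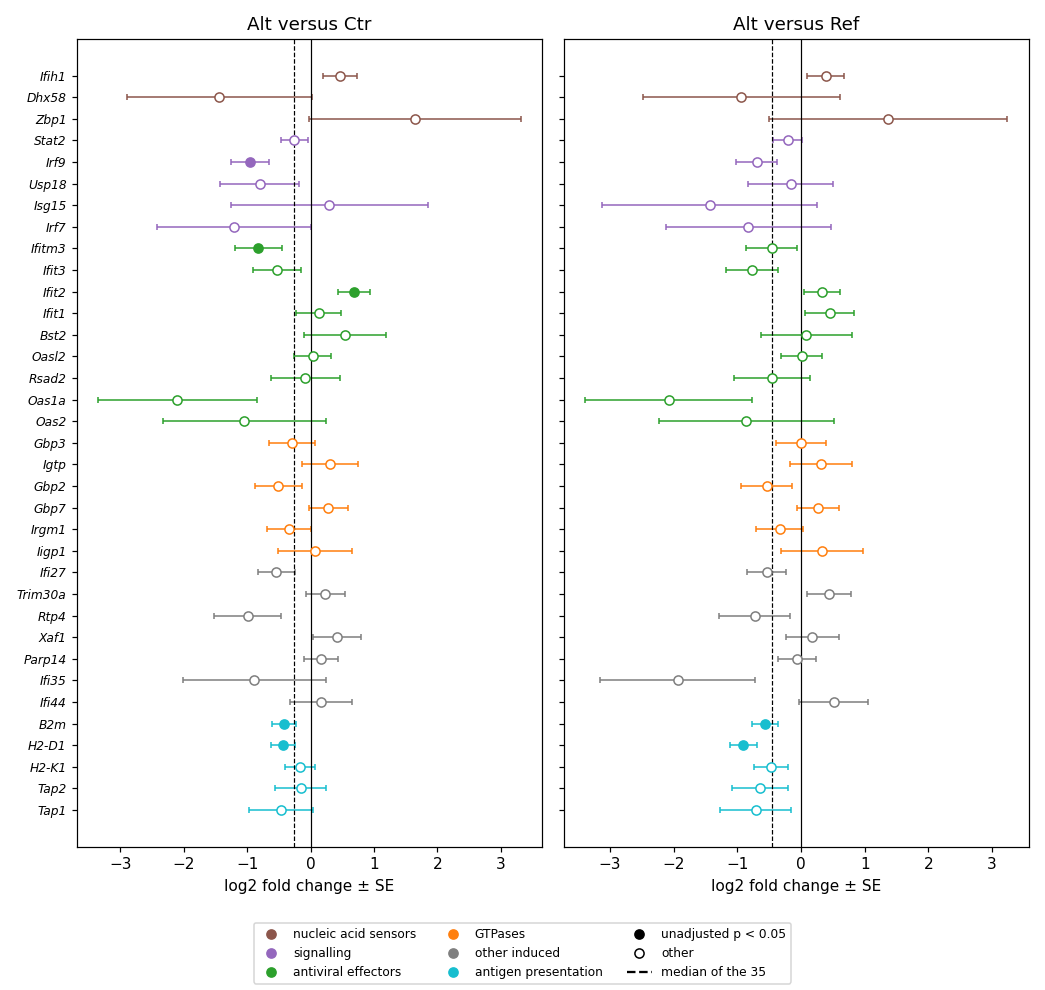
Log2 fold change ± SE of each of the 35 genes comparing Alt with Ctr (left) and with Ref (right), coloured by role, with filled symbols for an unadjusted p under 0.05, a solid line at 0 and a dashed line at the median of the 35. The 5 antigen presentation genes lie below 0 in both panels, whereas GTPases lie on both sides.

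Between Ref and Ctr, only H2-D1 was called (2.86% of 35), against 3.14% of all genes. It was higher, against 2.19% of all genes, and none was lower, against 0.945%. Libraries did not overlap for 4 genes (11.4%) in the higher direction (background 12.4%) and 1 (2.86%) in the lower direction (background 10.5%). The median log2 fold change was 0.01, both over the 35 and over all genes. Without Ctr replicate 2 it was 0.34, and 3 genes (8.57%, against 2.73% of all genes) were called higher: H2-D1, Ifit2 and Rsad2.

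The trend across Ctr, Ref and Alt, scored 0, 1 and 2, called Ifit2 higher and Ifitm3 and Irf9 lower. These 3 calls (8.57% of 35) stand against 16.7% of all genes, 8.85% in the higher and 7.89% in the lower direction. The median was -0.12 per step, compared with -0.01 over all genes. It was 0.0052 without Ctr replicate 2, -0.0034 without Alt replicate 2, -0.06 without Alt replicate 1 and -0.03 with the length correction. The trend and the comparisons with Alt share the same libraries and are not separate evidence.

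Cell type markers moved with some of these genes. As the background for their counts, 9.45% of all genes were called higher and 10.3% lower between Alt and Ctr, 6.71% and 8.83% between Alt and Ref, and 2.19% and 0.945% between Ref and Ctr. Summed over 10 oligodendrocyte markers, the level was 2425 to 3431 CPM in Ctr, 4101 to 5101 in Ref and 2374 to 2904 in Alt, the same order of groups as for H2-D1. Of these markers 8 of 10 (80.0%) were higher in Ref than in Ctr and 8 of 10 lower in Alt than in Ref, with Mbp, a myelin protein, at a log2 fold change of -1.29 (SE 0.16, FDR 0.0481) in the latter. Of 12 microglia markers, 4 (33.3%) were lower and 1 (8.33%) was higher in Alt than in Ctr, and 5 (41.7%) were lower than in Ref, with 9 of the 12 under 4000 bases long. C1qa, a complement component made by microglia, had a log2 fold change of -1.09 between Alt and Ctr (SE 0.29, FDR 0.121). The microglia markers summed to 525 to 597 CPM in Ctr, 612 to 628 in Ref and 499 to 554 in Alt. The part of these cell types in the class I and Irf9 values was not tested.

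Among 12 endothelial markers, 4 (33.3%) rose and 1 (8.33%) fell from Ctr to Alt, against 9.45% and 10.3% of all genes, with sums of 467 to 574 CPM in Ctr, 602 to 718 in Ref and 700.5 to 752 in Alt. Between Ref and Ctr 3 of the 12 (25.0%, against 2.19%) were higher. The 10 astrocyte markers gave 1 higher and 2 lower against Ctr in Alt. Of these 10, 3 were higher in Ref than in Ctr and 3 lower in Alt than in Ref, against 2.19% and 8.83% of all genes. Those calls went in the directions seen for H2-D1 and the oligodendrocyte markers. The summed astrocyte level was 5614 to 7241 CPM in Ctr, 7643 and 9188 in Ref, and 11540 and 8344 in Alt. Unlike for H2-D1, both Alt libraries were thus above every Ctr library in this sum. The part of astrocytes in the H2-D1 values was not tested either. The 7 mural cell markers gave none in either direction between Alt and Ctr. Of 7 meningeal fibroblast markers 2 (28.6%) were higher, and of 5 tested markers of infiltrating myeloid cells Mrc1, which border macrophages carry, was higher (log2 fold change 0.92, SE 0.26, FDR 0.124). The 10 neuron markers gave 2 higher and 1 lower. Choroid plexus markers summed to 2.58 to 6.70 CPM, and of 6 such markers 0 to 4 were at 0 in a library. None of the 2 choroid plexus and 3 lymphocyte markers that were tested passed in any comparison.

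With all 7 libraries the 6 GTPase genes were not called in any comparison, and their values differed more among the Ctr libraries than between group means. These genes encode guanylate-binding proteins (Gbp2, Gbp3 and Gbp7) and immunity-related GTPases (Irgm1, Igtp and Iigp1). Gbp3 had 11.1, 15.8 and 7.62 CPM in Ctr, 7.30 and 11.6 in Ref, and 11.9 and 6.97 in Alt. Iigp1 had 2.78, 12.2 and 3.30 CPM in Ctr, 4.26 and 5.95 in Ref, and 8.85 and 3.96 in Alt. For both genes Ctr replicate 2 was the highest of the 7 libraries, and the groups overlapped. The ratio of the highest to the lowest Ctr library was 1.92 for Gbp2, 1.99 for Gbp7, 2.06 for Irgm1, 2.07 for Gbp3, 3.28 for Igtp and 4.39 for Iigp1. Each of the 6 was highest in Ctr replicate 2. Without that library, Gbp7 (log2 fold change 0.65, FDR 0.226) and Iigp1 (1.07, FDR 0.243) were called higher in Alt than in Ctr, and both were also called higher in the trend. The same fit called Irf7 lower in both (-1.79 between Alt and Ctr, FDR 0.211), and its 5 calls between Alt and Ctr (14.3% of 35) stand against 19.2% of all genes. Their summed level was 42.7, 86.7 and 44.4 CPM in Ctr, 46.5 and 63.7 in Ref, and 67.8 and 42.9 in Alt. Igtp lies almost wholly within the span of Irgm2 on the same strand, so reads there can be ambiguous.

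**Figure D5:**
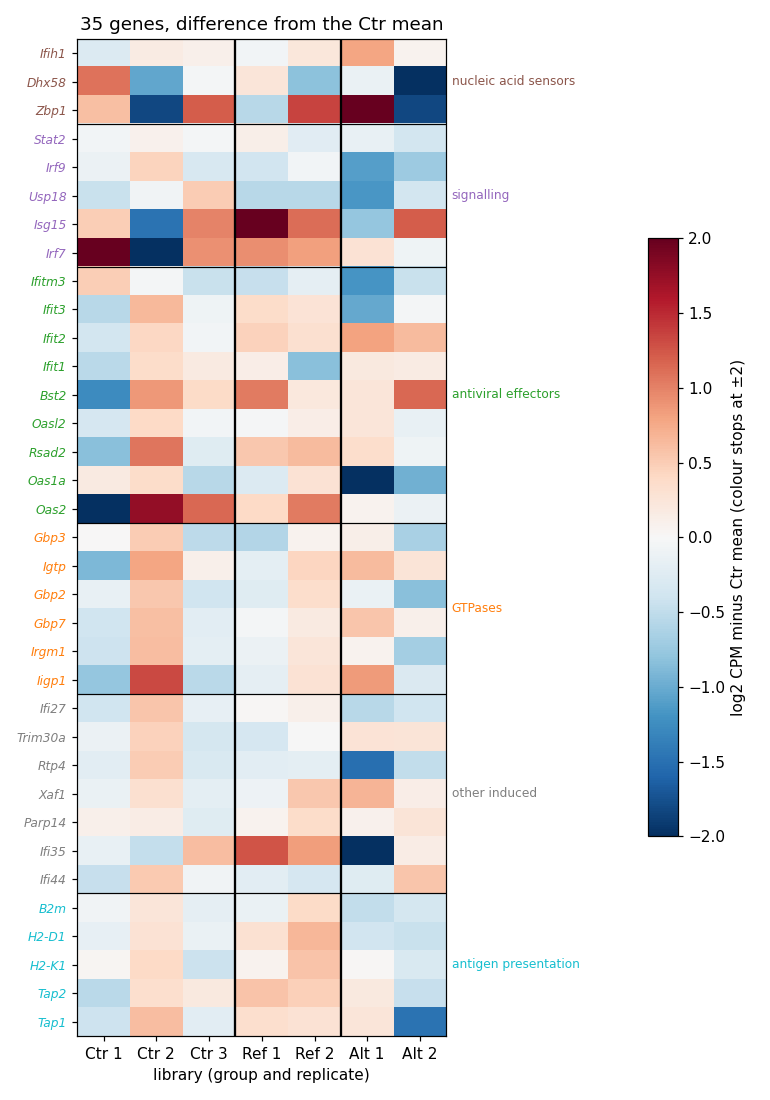
Log2 CPM of each gene in each library minus the mean of the 3 Ctr libraries (red above, blue below, colour stopped at 2 in either direction), with genes in rows by role and libraries in columns by group. The 6 GTPase rows are red in Ctr replicate 2, and the columns of one group differ from each other in most rows.

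The same library was high for many of the 35 genes but not for all of them. Ctr replicate 2 was the highest of the 7 libraries for 17 of the 35 genes (48.6%), and for 15.1% of all genes tested. It was at 0 for Irf7, Isg15 and Zbp1. The median log2 difference of the 35 genes from the Ctr mean was -0.21, 0.40 and -0.13 in the 3 Ctr libraries, -0.02 and 0.29 in Ref, and 0.08 and -0.28 in Alt. These medians had a pooled SD of 0.29 within groups, and Alt replicate 2 was the only Ref or Alt library outside the Ctr range. Within Ctr, the median ratio of the highest to the lowest library was 1.93 over the members without a 0, compared with 1.38 over all genes tested, which were not matched for level. The library total of Ctr replicate 2, 19982946 counts, lay between those of the other Ctr libraries. Its marker sums for microglia (597 CPM), oligodendrocytes (3431), astrocytes (7241), endothelial cells (574) and infiltrating myeloid cells (14.6) were the highest of Ctr. Its neuron, choroid plexus and lymphocyte sums were the lowest of Ctr, and the mural and meningeal fibroblast sums lay between.

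The remaining induced genes gave no call in any comparison with all 7 libraries and the low-count filter. Ifi27 was called lower in Alt than in Ctr without the filter or without Ctr replicate 1. Against Ref it was called lower without Ctr replicate 2. Ifi27 had 12.4, 24.02 and 14.5 CPM in Ctr, 16.5 and 17.4 in Ref, and 11.1 and 12.3 in Alt. Both Alt libraries were below the other 5, and the log2 fold change of -0.54 against Ctr (SE 0.29, FDR 0.318) did not pass. Rtp4, a receptor transporter protein that inhibits viral replication, was also below the other 5 in both Alt libraries (1.11 and 2.34 CPM, log2 fold change -0.99, FDR 0.317). Trim30a, Xaf1, Parp14, Ifi35 and Ifi44 overlapped between Alt and Ctr. Ifi35 had 18, 14 and 34 counts in Ctr, 52 and 36 in Ref, and 0 and 20 in Alt.

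The sensors likewise gave no call with all 7 libraries. Ifih1 had 10.1, 13.8 and 13.2 CPM in Ctr, 11.8 and 14.3 in Ref, and 21.2 and 12.9 in Alt. Alt replicate 1 was above all others and Alt replicate 2 was inside the Ctr range (log2 fold change 0.46, SE 0.27, FDR 0.353). Dhx58, a regulator of RNA sensing, had 0 to 33 counts and Zbp1 had 0 to 39.

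Related pathway genes were examined by lists that hold none of the 35. Of 18 class I processing genes tested, 1 (5.56%) rose and 5 (27.8%) fell from Ctr to Alt, against 9.45% and 10.3% of all genes. Their median log2 fold change was -0.41. Of the 18, 3 were 1000 to 2000 bases long and 12 were 2000 to 4000, and over all tested genes of these lengths the medians were -0.42 and -0.21. Psmb8, an inducible subunit of the immunoproteasome, had 3.28, 5.07 and 1.58 CPM in Ctr, 1.69 and 1.55 in Ref, and 1.04 and 0.335 in Alt. Its log2 fold change was -2.27 (SE 0.74, FDR 0.143). Psme2, a subunit of the proteasome activator PA28, had a log2 fold change of -1.68 (SE 0.60, FDR 0.166), and Pdia3, a disulfide isomerase that helps load class I molecules, of -0.47 (SE 0.17, FDR 0.171). H2-T24, a nonclassical class I gene, was higher at 1.15 (SE 0.34, FDR 0.127). Between Alt and Ref, 1 of the 18 (5.56%) was higher and 3 (16.7%) were lower, against 6.71% and 8.83% of all genes. Between Ref and Ctr 0 were higher and 1 (5.56%) was lower, against 2.19% and 0.945% of all genes.

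Of 8 class II genes, 1 (12.5%, against 10.3% of all genes) was lower in Alt than in Ctr and 2 (25.0%, against 8.83%) were lower than in Ref, with none higher. Ctss, a cathepsin that trims the invariant chain and is abundant in microglia, had 79.7, 72.1 and 58.2 CPM in Ctr, 71.5 and 75.4 in Ref, and 26.9 and 35.6 in Alt. Its log2 fold change was -1.16 against Ctr (SE 0.19, FDR 0.120) and -1.23 against Ref (SE 0.21, FDR 0.229). H2-Eb1, a class II beta chain, was lower in Alt than in Ref (-1.40, SE 0.63, FDR 0.317).

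Upstream of the induced genes, calls between Alt and Ctr went in both directions. Over all genes 9.45% were called higher and 10.3% lower. Of 10 receptor and kinase genes tested, Ifngr2, a chain of the interferon gamma receptor, was lower (-0.72, SE 0.24, FDR 0.156). Of 18 sensing and transcription factor genes 3 (16.7%) were higher: Nlrc5, the transactivator of class I genes (1.67, SE 0.55, FDR 0.147), and the endosomal receptors Tlr9 (1.10, FDR 0.236) and Tlr7 (0.79, FDR 0.236). Nlrc5 measured 1.19, 1.43 and 1.63 CPM in Ctr, 2.03 and 4.45 in Ref, and 6.57 and 2.51 in Alt, so that it was higher in Alt than in Ctr while B2m and H2-D1 were lower. Of 11 negative regulators tested 3 (27.3%) were lower, namely Ptpn2, a phosphatase of JAK and STAT proteins (-0.78, SE 0.25, FDR 0.137), Cactin (-0.89, SE 0.29, FDR 0.148) and Pias4, a SUMO ligase that inhibits STAT proteins (-0.68, SE 0.29, FDR 0.225). Of the 11, 7 were 2000 to 4000 bases long, these 3 among them. Over all tested genes of that length the median log2 fold change was -0.21.

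Of 38 other interferon-induced genes tested, 3 rose and 3 fell from Ctr to Alt (7.89% each way), no more than the 9.45% and 10.3% of all genes. Samd9l (0.83, SE 0.25, FDR 0.129) and Parp9 (0.81, SE 0.30, FDR 0.171) were higher. Cxcl10, a chemokine that attracts T cells, had 19, 82 and 36 counts in Ctr, 31 and 18 in Ref, and 0 and 5 in Alt (FDR 0.134). Oas3, the largest oligoadenylate synthetase, had 6, 13 and 22 counts in Ctr, 3 and 1 in Ref, and 0 in both Alt libraries. Its Ctr mean was 3.61 times a floor of 3 counts per library in Alt, a ratio that leaves out the spread between libraries. The Ref mean was below that floor. Between Alt and Ref, 0 of the 38 were higher and 2 (5.26%) were lower, against 6.71% and 8.83% of all genes. Between Ref and Ctr, no gene of the receptor, regulator, class II or induced lists passed, and Trim25, a ubiquitin ligase of RNA sensing, was the 1 called in the sensing list (0.55, SE 0.24, FDR 1.0). It was 5.56% of the 18 tested there, whereas 2.19% of all genes were called higher and 0.945% lower.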

How the data were processed

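RNA sequencing measured 3 Ctr, 2 Ref and 2 Alt libraries. The deposited table, made by the authors with STAR and featureCounts (versions not given in the sources used here), holds counts per gene and, beside them, TPM and FPKM that the authors computed from the counts and gene lengths; TPM was not used. The notes name the human build hg19 although the genes are mouse, so coordinates of the table are not printed. The strand setting and the treatment of reads that map to several genes are not given. Counts were tested with edgeR 4.0.16 in R 4.3.3 (TMM, filterByExpr by group, glmQLFit, glmQLFTest, two-sided) over all 7 libraries. Alternatives were RLE scaling, no low-count filter, DESeq2 1.42.0, a loess correction for gene length, protein-coding genes alone, the replicate number as a block, and leaving out each library. The code was tested on simulated data. Log2 CPM used a prior count of 2. The floor of 3 counts covers counting error only, whereas SEs include the spread between libraries. The 35 genes and all lists were chosen with earlier results of these data known. Each called gene, the most abundant gene per role and at most 4 called genes per list, by their smallest p over the 4 comparisons, are named.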

Additional observations from a re-analysis of the deposited data

How the results depend on the processing

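Members called between Alt and Ctr numbered 5, and 2 with RLE size factors, 3 with DESeq2, 2 with the length correction, 2 among protein-coding genes alone and 3 with the replicate block; between Alt and Ref 2, and 5 without the low-count filter, 1 with the length correction and 4 with the block; between Ref and Ctr 1, and 0 with the length correction or the block. Leaving out 1 library gave 3 to 9 calls between Alt and Ctr, 1 to 7 between Alt and Ref, 0 to 3 between Ref and Ctr and 2 to 4 in the trend, where a group left with 1 library is assumed to vary like the others. The share of members called was above that of all genes in 2 of 13 alternatives between Alt and Ctr (17.1% against 15.8% without the low-count filter, 8.57% against 8.14% without Alt replicate 1). Between Alt and Ref it was above in 4 of 13 (14.3% against 12.4% without the filter, 11.4% against 9.01% with the block, 11.4% against 6.76% without Alt replicate 1, 8.57% against 4.19% without Ref replicate 1), whereas with all libraries it was 5.71% against 15.5%. Between Ref and Ctr it was above in 2 of 13 (8.57% against 2.73% without Ctr replicate 2, 2.86% against 1.49% without Ref replicate 1), and in the trend in 0 of 13. The member median between Ref and Ctr ranged from -0.11 to 0.34. The highest counts, 9 and 7, came without Alt replicate 2, when 3 members (Ifi35, Irf9, Oas1a) and 4 members (H2-D1, Ifi35, Ifit3, Oas1a) had an FDR under 0.05. In that fit 33.2% and 28.9% of all genes were called, and 3451 and 2708 of 18848 genes had an FDR under 0.05. Without the low-count filter, Irf9 between Alt and Ctr had an FDR of 0.0489 and H2-D1 between Alt and Ref one of 0.00202, as 1484 and 850 of 26895 genes passed that threshold. No called gene changed direction under the settings run. Deviations from the group mean had correlations from -0.098 to 0.070 between same-numbered libraries. In a group of 2 libraries these deviations mirror each other, so the values cannot show whether same-numbered libraries share more than a number. The cause of these differences was not tested. At this depth 7 members had 0 counts in some library, where a 0 allows up to 3 counts. These zeros stood beside well-counted libraries of like total: Irf7 had 100, 0 and 38 counts in the Ctr libraries, which held 19382848 to 20750857 counts.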

Other observations

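Several low genes of the group were at 0 in 1 library while another library of the same group had 10 counts or more: Dhx58, Ifi35, Irf7, Isg15, Oas2 and Zbp1, 6 of the 35 genes (17.1%), compared with 9.19% of all genes tested. The genes compared were not matched for level, and the 35 were mostly low. The widest case was Irf7, with 100, 0 and 38 counts in Ctr, 37 and 32 in Ref, and 17 and 15 in Alt. Zbp1 had 9, 0 and 16 counts in Ctr, 3 and 16 in Ref, and 39 and 0 in Alt. The library at 0 was not the same for each gene: Ctr replicate 2 was at 0 for Irf7, Isg15 and Zbp1, although it was the highest library for all 6 GTPases. Irf7 shares 45 bases with Phrf1 on the opposite strand.

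The myxovirus resistance genes Mx1 and Mx2, whose intact forms block viral ribonucleoproteins, are annotated here as polymorphic pseudogenes and were near the floor. Mx1 had 0 to 10 counts per library and was not tested, and Mx2 had 0 to 21 counts (log2 fold change between Alt and Ctr -0.48, SE 1.53, FDR 0.903).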
